A study of Homo sapiens with 3 samples.

Results

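The genes described here encode DNA methyltransferases, core Polycomb subunits, class I histone deacetylases and the telomerase enzyme: DNMT1, DNMT3A, DNMT3B, EZH2, SUZ12, EED, HDAC1, HDAC2, TERT and DKC1. A gene was measured when the array carried a probe set annotated to it alone, and every such probe set was kept. This gave 10 probe sets for 9 of the 10 listed genes, out of 19071 probe sets that name 1 gene (11963 genes) among the 22283 on the array. All 3 probe sets annotated to DKC1 also name small RNAs of its introns, so DKC1 has no value of its own here.

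The RNA came from iHCE cells, human corneal epithelial cells immortalized with the SV40 large T antigen, a viral protein that binds and inactivates the p53 and retinoblastoma tumor suppressors. They are a single transformed line, used at passages 22 to 23, grown on collagen-coated filters for a week and then lifted to the air-liquid interface, where they stratify. Each of 3 independent culture batches was hybridized to 1 Affymetrix HG-U133A array once its trans-epithelial resistance was above 300 Ω·cm2 (489, 439 and 468 Ω·cm2 in cultures 1, 2 and 3). There is only 1 group: the corneal tissue to which the study set these cultures was not analysed here, so no gene is called raised or lowered and no p-value is given.

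DNA methyltransferases add methyl groups to cytosine in CpG dinucleotides, DNMT1 copying the existing pattern onto new DNA strands after replication and DNMT3A and DNMT3B setting new marks. Polycomb repressive complex 2 (PRC2), built on EZH2, SUZ12 and EED, methylates lysine 27 of histone H3 and holds developmental genes silent, and histone deacetylases remove acetyl groups in several co-repressor complexes. Telomerase, made of the reverse transcriptase TERT, an RNA template and the dyskerin particle, extends chromosome ends. Most differentiated human cells lack it, whereas many immortal lines carry it.

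Promoter stretches of 4 of these genes are printed to show the sequence that lies at their starts. E2F factors, which drive genes of DNA replication and are held in check by the retinoblastoma proteins that large T binds, recognize letters such as TTTCCCGC, TTTGGCGC, TTTGCCGC and TTTCGCGC, and MYC recognizes the E-box CACGTG. These letters were searched on both strands, and the 2 sets do not overlap with each other. The promoters are RefSeq windows of 300 bases (250 before an annotated start and 50 from it on, GRCh38.p14). Matches are in capitals and each line reads 5′ to 3′ along the gene: EZH2 at chr7:148884262-148884361 (minus strand), SUZ12 at chr17:31936772-31936871 (plus strand), DNMT1 at chr19:10194924-10195023 (minus strand) and TERT at chr5:1295179-1295278 (minus strand).
EZH2: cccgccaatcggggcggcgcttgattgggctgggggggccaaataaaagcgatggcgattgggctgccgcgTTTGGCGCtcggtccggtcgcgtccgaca
SUZ12: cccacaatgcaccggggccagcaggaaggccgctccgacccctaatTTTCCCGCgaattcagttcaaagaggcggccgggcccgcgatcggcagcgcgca
DNMT1: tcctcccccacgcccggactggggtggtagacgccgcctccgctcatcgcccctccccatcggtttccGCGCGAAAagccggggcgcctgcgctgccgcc
TERT: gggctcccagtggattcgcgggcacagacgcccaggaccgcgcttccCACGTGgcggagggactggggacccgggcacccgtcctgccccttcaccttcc

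In EZH2 the E2F letters TTTGGCGC lay just past the annotated start, at positions 1 to 8 counted from the start base as 0. In DNMT1 the letters TTTCGCGC stood on the opposite strand across the start, so the capitals read GCGCGAAA. In SUZ12 the letters TTTCCCGC stood upstream, at -189 to -182. E2F letters were found in these 3 of the 10 genes (3 of their 16 windows), against 3.31% of all 35116 windows in the table. E-box letters were found in TERT, at -163 to -158, and in 2 overlapping DNMT3A windows that start far inside that gene. In these DNMT3A windows the match is the same genomic site. Of all windows, 7.26% held E-box letters. A match is a string of letters and was not tested for binding, and no match says only that these letters are not in the window.

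CpG dinucleotides are the substrate of the methyltransferases themselves. Their observed to expected ratio was over the median of all windows at most of these starts. The ratio of observed to expected CpG was 1.10 and 1.02 in the 2 EZH2 windows, 1.00 in SUZ12, 0.874 in DNMT1, 0.866 in DKC1, 0.849 in TERT, 0.801 in HDAC2, 0.784 in EED and 0.690 in HDAC1, against a median of 0.579 over all windows. Of all windows, 97.5% had a ratio at or below the higher EZH2 value, but only 57.2% at or below that of HDAC1. The 6 DNMT3A windows ran from 0.503 to 1.02. DNMT3B stood low at 0.118, with 3 CpG, but its only window in the table sits at a start inside the gene and not at the outermost one. CpG methylation itself was not measured in these cultures.

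**Figure D1:**
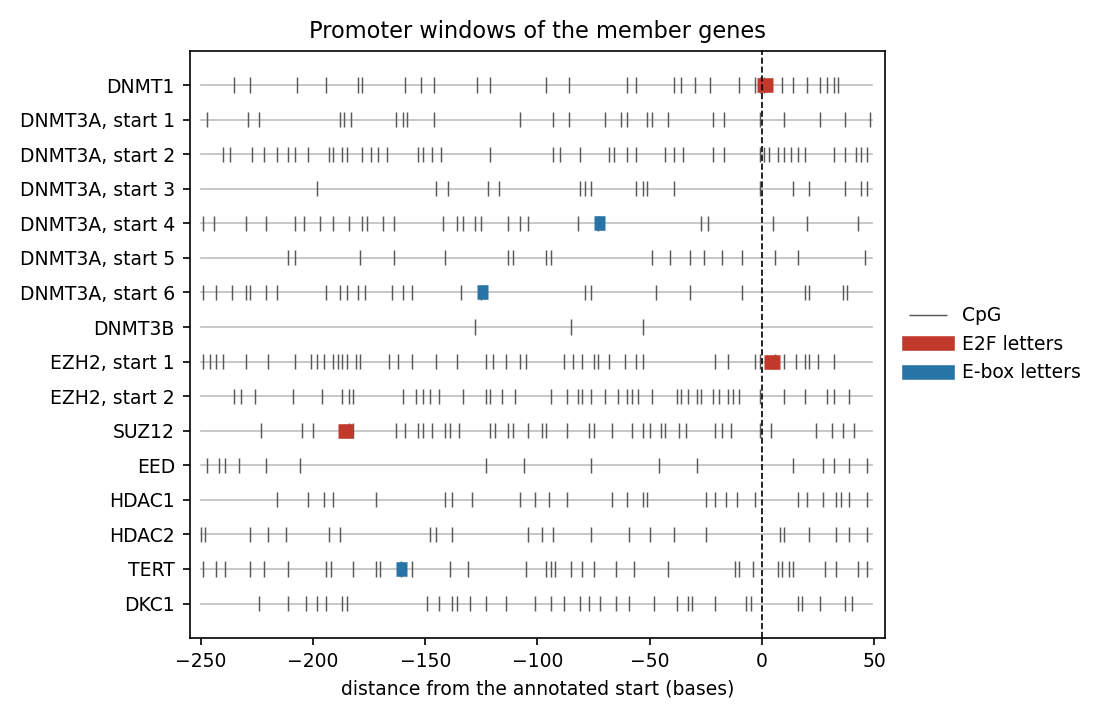
CpG dinucleotides (grey ticks), E2F letters (red) and E-box letters (blue) in the 16 RefSeq promoter windows of the 10 genes, by distance from the annotated start in bases (dashed line, start). E2F letters lie at the start of EZH2 and DNMT1 and upstream in SUZ12, the E-box in TERT lies upstream of its start, and the DNMT3B window, inside the gene, holds 3 CpG.

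The values are log2 expression values from RMA, a method that corrects the array background, gives all arrays a common distribution and combines the probes of a set into 1 value. To judge signal, 63 measured genes that belong to other tissues served as a background panel, and their 95th percentile, 7.12, 7.06 and 7.08 in cultures 1, 2 and 3, was the threshold of that array. Above background means over the threshold in all 3 cultures. Of the 9 measured genes, 7 were above background at their brightest probe set: DNMT1, DNMT3B, EZH2, SUZ12, EED, HDAC1 and HDAC2. DNMT3A and TERT were below it on all 3 arrays. Over the whole array 44.9% of genes passed the same rule. Without probe sets ending in _x_at or _s_at, whose probes can match several transcripts, 5 of the genes were measured and 3 passed. In that setting 38.5% of all genes measured passed. By probe sets, 7 of the 10 passed, against 36.4% of all probe sets that name 1 gene. With bulk RNA, fewer cells that carry a transcript and less transcript per cell cannot be told apart.

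The array as a whole held 5376 genes above background, and the arrays correlated at 0.988 (cultures 1 and 2), 0.987 (1 and 3) and 0.994 (2 and 3) over all probe sets. All 6 genes listed as markers of simple epithelium were above background at their brightest probe set, with the keratins KRT18 at 12.58 and KRT8 at 10.24 on average. Further probe sets of the keratin KRT7 (4.93) and the adhesion molecule CDH1 (5.00) were below background. None of the 6 markers of corneal epithelium was above background, including the defining keratins KRT3 (4.86 ± 0.10) and KRT12 (5.26 ± 0.16; SD, n = 3). PAX6, the master regulator of the eye lineage, came closest at 7.11, 6.55 and 6.83 (6.83 ± 0.28), with culture 1 just under its threshold. No marker of the labelled cell type was thus called, which bounds the signal of these probe sets and not the transcripts. None of 13 measured markers of keratocytes, melanocytes, immune cells or endothelium passed either.

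Among the DNA methyltransferases, the maintenance enzyme DNMT1 and the de novo enzyme DNMT3B were above background and the other de novo enzyme, DNMT3A, was not. DNMT1 measured 10.01, 9.72 and 9.63 in cultures 1, 2 and 3 (probe set 201697_s_at, 9.79 ± 0.20; SD, n = 3), a mean of 2.70 log2 units over the array thresholds. All 3 cultures were far over the threshold, with culture 1 the highest. For DNMT3B the cultures gave 8.03, 8.11 and 7.89 (220668_s_at, 8.01 ± 0.11), 0.93 over the thresholds. These 3 values lay within 0.23 log2 units of each other, and each was over its own array's threshold. DNMT3A read 5.64, 5.77 and 5.68 (218457_s_at, 5.69 ± 0.067), a mean of -1.39 log2 units from the thresholds. Its cultures were alike and all low. Each of these genes had a single probe set of its own, so for DNMT3A the array gives only that its one probe set read no signal over the panel, and a dim probe set cannot be told apart from a low transcript level.

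The partners, readers and erasers of DNA methylation were split: 5 of 10 measured genes (of 14 listed) were above background, a share of 50% beside 44.9% of all genes. The 5 were MBD1, MBD2 (8.78 ± 0.18), MBD3 (9.44 ± 0.019) and MBD4, of the methyl-CpG binding domain family, and TDG (9.23 ± 0.046). These values are for the brightest probe set of each gene. Other probe sets of MBD2 (means 4.77, 4.36 and 3.78), MBD4 (4.30) and TDG (5.10) were below background on all arrays. TDG is the glycosylase that takes out oxidized methylcytosine. MBD3 held 9.46, 9.42 and 9.44 in the 3 cultures, and MBD2 8.98, 8.62 and 8.76. The 5 others were DNMT3L (5.79 ± 0.062), the catalytically inactive helper of the de novo enzymes, the tRNA methyltransferase TRDMT1 (5.93 ± 0.16), the methyl-CpG binding repressor ZBTB33 (3.75 ± 0.059), and the dioxygenases TET1 (3.79 ± 0.040) and TET3 (6.95 ± 0.11). TET3 came near the thresholds, between 6.82 in culture 3 and 7.02 in culture 2, and was below them on every array. UHRF1, which brings DNMT1 to replicated DNA, UHRF2 and TET2 were not analysed here.

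All core PRC2 subunits were above background. EZH2, the methyltransferase of the complex, measured 8.92, 8.43 and 8.49 (203358_s_at, 8.61 ± 0.27), 1.53 over the thresholds. Culture 1 stood above cultures 2 and 3, which were close together. SUZ12, which holds the complex together, measured 9.20, 9.36 and 9.65 (212287_at, 9.40 ± 0.23), 2.31 over the thresholds. Here culture 1 was the lowest and culture 3 the highest. A further probe set, 213971_s_at, is annotated to SUZ12 and the pseudogene SUZ12P1 together and read 6.49, 6.63 and 6.39, below background on all arrays. That annotation names both, so its value was given to neither.

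EED, the subunit that binds the methylated histone tail, was represented by 2 probe sets that did not agree. The probe set 209572_s_at read 10.19, 10.47 and 10.41 (10.36 ± 0.15), 3.27 over the thresholds, whereas 210656_at read 4.46, 4.11 and 4.36 (4.31 ± 0.18), a mean of -2.78 from them. In every culture the first was far over background and the second far under it. Their difference was 5.73, 6.35 and 6.05 in cultures 1, 2 and 3, a mean of 6.05 ± 0.31 log2 units (SD, n = 3). Of the 4310 genes with several probe sets, 1.53% had a gap between the brightest and the dimmest that was as large, and the median gap was 1.60. Probe sets differ in affinity and in the stretch of the transcript they read, and which of these bears on EED was not tested.

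Outside this core, 6 of 8 measured PRC2 partners and H3K27 demethylases (of 10 listed) were above background, 75% beside 44.9% of all genes. They were the histone binding proteins RBBP7 (11.42 ± 0.34) and RBBP4 (7.73 ± 0.097), the accessory subunits PHF1 (9.56 ± 0.19), JARID2 (8.47 ± 0.087) and MTF2 (8.21 ± 0.56), and EZH1 (7.92 ± 0.081), the paralog of EZH2 found in resting cells. At the brightest probe sets, MTF2 varied the most within this list, at 7.56, 8.57 and 8.49. There culture 1 was about 1 log2 unit below the others. Its further probe sets above background varied less, at 7.92 ± 0.10 and 7.66 ± 0.18. Culture 3 was the lowest at the first of them and culture 1 at the second. EZH1, at 7.98, 7.94 and 7.83, was even over the cultures. The demethylases that take the mark off lay on the boundary: KDM6A (7.07, 7.39 and 7.15) was over the threshold on 2 arrays and KDM6B (7.09, 7.15 and 6.91) on 1, so neither was called. With the highest panel value as threshold, 3 of the 8 were called, beside 32.1% of all genes. AEBP2 and PHF19 were not analysed here.

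Polycomb repressive complex 1, which binds the mark PRC2 leaves and ubiquitinates histone H2A, was above background at 9 of 13 measured subunits (of 20 listed), 69.2% beside 44.9% of all genes. RING1, a ubiquitin ligase of the complex, measured 9.48, 9.27 and 9.37 (9.38 ± 0.11). Among the chromodomain readers CBX7 measured 8.21, 8.29 and 8.31 (8.27 ± 0.054) and was called, whereas CBX2 measured 6.04, 5.52 and 5.73 (5.77 ± 0.26) and was not. The cultures agreed on both calls. The 4 subunits not called were CBX2, PCGF3 (6.70 ± 0.42), PHC3 (5.45 ± 0.12) and YAF2 (5.31 ± 0.11). The ligase RNF2 and its partner BMI1, a repressor of the CDKN2A locus, were not analysed here, nor were PCGF5, PCGF6, CBX8 and KDM2B.

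Both class I deacetylases of the list were above background on every array. HDAC1 measured 10.55, 10.19 and 10.29 (201209_at, 10.34 ± 0.19), 3.26 over the thresholds. HDAC2, which shares its complexes, measured 9.74, 9.37 and 9.65 (201833_at, 9.59 ± 0.19), 2.50 over them. In both genes culture 1 was the highest and culture 2 the lowest. No culture came within 2 log2 units of the threshold for either.

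Of the complexes in which HDAC1 and HDAC2 act (SIN3, NuRD and CoREST), 11 of 12 measured subunits (of 18 listed) were above background, a share of 91.7% beside 44.9% of all genes. CHD4, the remodeling ATPase of NuRD, measured 10.28, 10.05 and 10.27 (10.20 ± 0.13), and KDM1A, the lysine demethylase of CoREST, 9.68, 10.16 and 10.10 (9.98 ± 0.27). RCOR1, the scaffold of CoREST, gave 7.74, 8.63 and 8.49 (8.28 ± 0.48). KDM1A and RCOR1 were both lowest in culture 1. The exception was MTA2 of NuRD, at 5.59, 5.37 and 5.41 (5.46 ± 0.11). The count of this list is lower under other rules: 6 with the highest panel value as threshold, under which 32.1% of all genes passed, and 7 at the mean over a gene's probe sets. SIN3A, MTA3, GATAD2B, NCOR1 and ARID4A were not analysed here.

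The other deacetylases were split, with 8 of 14 measured genes (of 16 listed) above background, 57.1% beside 44.9% of all genes, and a median of 0.22 log2 units over the thresholds. HDAC3, a further class I enzyme, measured 9.53, 9.42 and 9.47 (9.47 ± 0.057). SIRT1, a NAD-dependent deacetylase of histones and p53, measured 7.23, 7.70 and 7.42 (7.45 ± 0.23), over the threshold in each culture by a small margin. The class IIa enzyme HDAC9 read 6.34, 6.34 and 6.83 (6.50 ± 0.29) and was below it throughout. HDAC6, HDAC7, SIRT2, SIRT3, SIRT6 and SIRT7 were the other 6 genes called. The count was 4 with the highest panel value as threshold, under which 32.1% of all genes passed, and also 4 with the panel median plus 3 scaled median absolute deviations, under which 33.1% did. HDAC8 and HDAC10 were not analysed here.

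TERT, the catalytic subunit of telomerase, was below background in every culture. Its only probe set, 207199_at, read 6.58, 6.52 and 6.39 (6.50 ± 0.099), which is -0.53, -0.54 and -0.69 log2 units from the thresholds of cultures 1, 2 and 3. The 3 values were close together and none reached even the 90th percentile of the panel, which was 6.88, 6.87 and 6.73. TERT is transcribed at very few copies in telomerase-positive cells, so a value under the panel threshold on this array is a limit on the signal and not a statement that the transcript is absent. Telomerase activity was not measured here.

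Of the telomerase and H/ACA list, 7 of 8 measured genes (of 11 listed) were above background, 87.5% beside 44.9% of all genes, with a median of 2.13 log2 units over the thresholds. NHP2 (11.43, 11.20 and 11.30) and NOP10 (10.03, 9.53 and 9.74), which bind H/ACA RNAs together with dyskerin, were above background in all cultures. GAR1, the remaining core protein, measured 8.04, 8.55 and 8.50 (8.37 ± 0.28), with culture 1 the lowest. WRAP53, which brings telomerase to Cajal bodies, measured 9.06, 9.18 and 9.37 (9.20 ± 0.16). The assembly factors SHQ1, RUVBL1 and RUVBL2 completed the 7. These proteins also serve ribosomal and splicing RNAs, so they are not particular to telomerase. SMG6 (6.42 ± 0.072), a nonsense-mediated decay nuclease also found at telomeres, was not called, and NAF1, TEP1 and PINX1 were not analysed here.

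Shelterin, the protein cap of the telomere, and telomere chromatin factors were above background at 9 of 11 genes, 81.8% beside 44.9% of all genes. Among shelterin proteins, TERF2 measured 8.28, 8.61 and 8.36 (8.42 ± 0.17), TERF2IP 8.60, 9.04 and 8.94 (8.86 ± 0.23), TINF2 7.62, 8.11 and 8.13 (7.95 ± 0.29), ACD 9.18, 8.88 and 8.92 (8.99 ± 0.16) and POT1 8.42, 8.33 and 8.62 (8.46 ± 0.15). TERF1, which binds the double-stranded repeat as TERF2 does, was the one shelterin gene not called, at 6.67, 6.78 and 7.04. ATRX and DAXX form the chaperone that lays histone H3.3 at telomeres and whose loss marks cells that maintain telomeres without telomerase. ATRX measured 8.90, 8.80 and 8.93 (8.87 ± 0.071). DAXX measured 7.05, 7.39 and 6.85 (7.10 ± 0.27) and was over the threshold in culture 2 only.

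Over the 7 lists together, 55 of 76 measured genes (72.4%, of 100 listed) were above background and their median was 0.95 log2 units over the thresholds, whereas the median of all genes was -0.11. Of the 76 genes, 40 had several probe sets, and in 21 of these the probe sets fell on both sides of the call. The lists were drawn up from general knowledge of the complexes with earlier results of these data known, and the counts are descriptions.

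**Figure D2:**
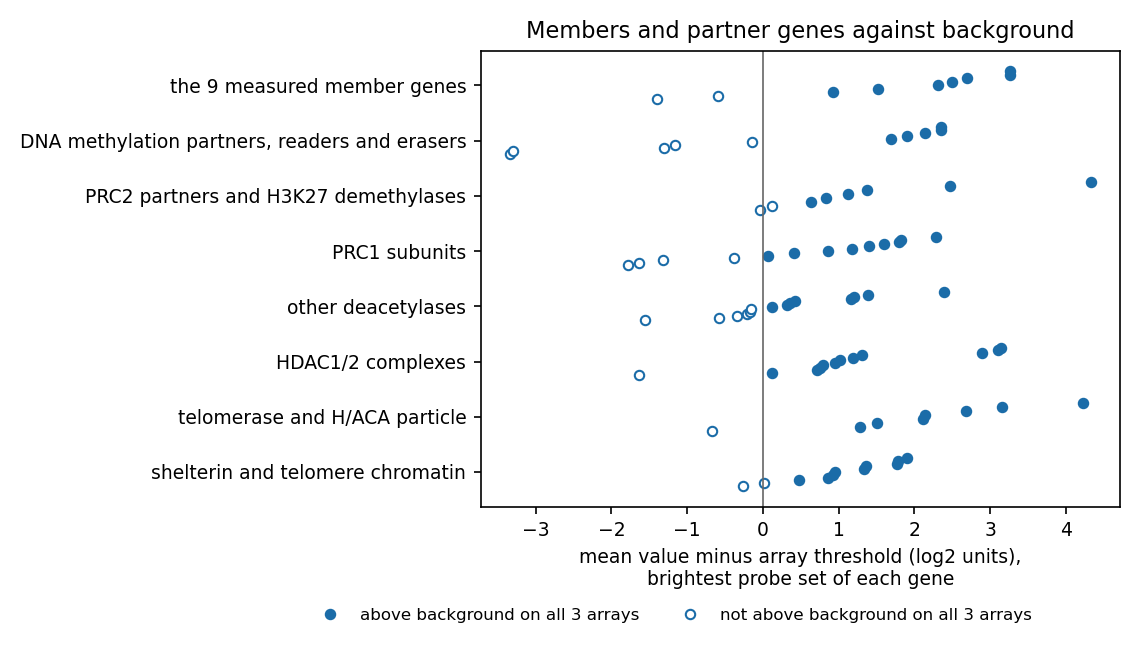
Mean value over 3 cultures minus the array threshold (log2 units) at the brightest probe set of each gene, for the 9 measured genes and the 7 partner lists; filled points are above background on all 3 arrays, open points are not. DNMT3A and TERT are the open points in the top row, and 55 of the 76 list genes are filled.

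**Figure D3:**
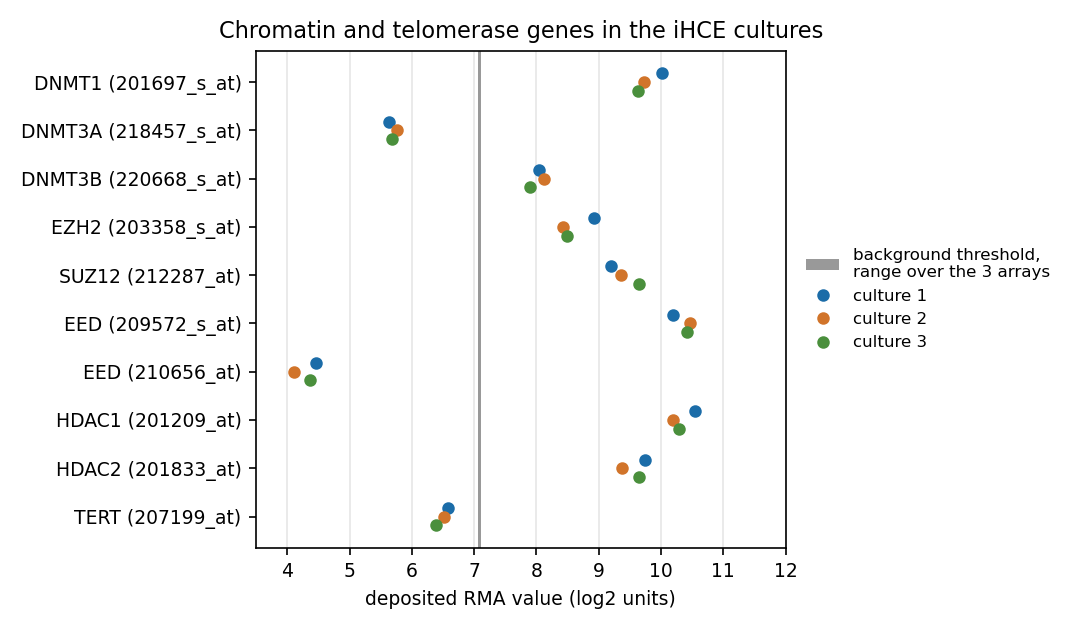
Deposited log2 value of each of the 10 probe sets in cultures 1, 2 and 3 (points), with the background threshold as a grey band spanning its range over the 3 arrays. DNMT3A, TERT and the probe set 210656_at of EED lie left of the band in all cultures, and the 7 others lie right of it.

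The 7 probe sets above background differed between cultures by less than 0.5 log2 units each. Their SD over the 3 cultures ran from 0.11 (DNMT3B) to 0.27 (EZH2), with a median of 0.19, against a median of 0.15 over all 6950 probe sets above background. None of the 7 had a range of 0.5 log2 units or more, against 17.6% of all probe sets above background, although EZH2 came just under that limit at 0.498. The other ranges were 0.45 for SUZ12, 0.38 for DNMT1, 0.37 for HDAC2, 0.36 for HDAC1, 0.28 for EED and 0.23 for DNMT3B. An SD over 3 arrays is itself imprecise, and these values hold for 3 batches of 1 line.

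Culture 1 lay outside the range of cultures 2 and 3 at 6 of the 7 probe sets, as it did at 79.8% of all probe sets above background, so this count is near the share over the array. Culture 1 was the highest of the 3 at 4 of the 7 probe sets, those of EZH2, DNMT1, HDAC1 and HDAC2, against 38.5% of all probe sets above background, and the lowest at SUZ12 and EED. Within PRC2 the direction differed between subunits: culture 1 minus the mean of cultures 2 and 3 was 0.47 for EZH2, but -0.31 for SUZ12 and -0.25 for EED. For DNMT1 the same difference was 0.34, for HDAC1 0.31, for HDAC2 0.23 and for DNMT3B 0.03. EZH2 alone lay outside the 5th to 95th percentile of that difference over all probe sets above background, -0.57 to 0.45. It was only just past the upper end, and the interval by definition leaves 5% of those probe sets at each end. The median of the 7 was 0.23, against -0.01 for all probe sets above background. Over cultures 2 and 3 only, the median SD of the 7 was 0.070, against 0.086 for all probe sets above background.

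The array of culture 1 also stood apart in the probe sets of the poly-A controls, RNAs made for adding before labeling. The paper does not say whether they were added to these samples. The median of these probe sets was 5.44, 6.82 and 6.67 log2 units in cultures 1, 2 and 3. Each median lay under the background threshold of its array. All 24 of these probe sets were lowest in culture 1. The 3′ minus 5′ signal of GAPDH was 1.64, 1.34 and 1.28, with culture 1 the highest. That of beta-actin went the other way, between 2.99 in culture 1 and 3.25 in culture 2, with culture 3 close to culture 1. The marker sum over the 13 genes of other cell types was 73.9, 72.3 and 73.1. The part of these array properties in the culture 1 values was not tested. With 1 array per culture, the culture and its array cannot be told apart.

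**Figure D4:**
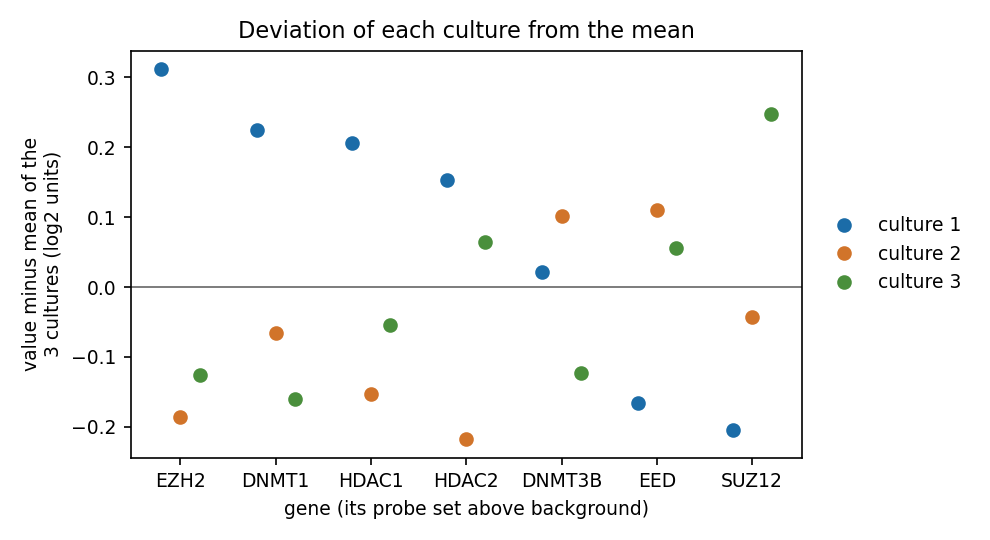
Value of each culture minus the mean of the 3 cultures (log2 units) at the 7 probe sets above background, 1 gene per column. Culture 1 is the highest point for EZH2, DNMT1, HDAC1 and HDAC2, and the lowest for EED and SUZ12.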

How the data were processed

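Total RNA of 3 iHCE culture batches was amplified once, labeled and hybridized to 3 HG-U133A arrays. The authors deposited log2 values made by RMA (R 2.8.0 per the submitters' processing notes). The paper's methods describe normalization over the whole data set, tissue included, and a custom chip definition. The deposited table holds 22283 standard probe sets, so it is not the output of that custom definition. No source used here says whether the tissue arrays entered its normalization. RMA has removed differences in total brightness (array medians 6.37, 6.38 and 6.37) and compresses low values. The build of the annotation: not given in the sources used here.

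Probe sets were named from the platform annotation, with symbols updated through RefSeq: 19071 had 1 gene (12 kept an older name), 1043 had several and were left out, and 2169 were not listed. No further normalization was applied. A gene was called at its probe set of highest mean. The threshold was the 95th percentile, per array, over the brightest probe sets of genes that mark other tissues (73 listed, 63 measured); 2 panel genes, CYP3A4 and GRIN1, were themselves called. The named genes are every member with each probe set, direct partners of their complexes, and the genes left out by counts of 5 or fewer; other list genes are named to account for whole lists, after their values were seen. The members, panel and lists were chosen with earlier results of these data known. No test between groups exists with 1 group, and having 3 arrays limits the precision. SDs cover the spread between batches and arrays together.

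Alternatives were other panel thresholds (90th percentile, highest value, median plus 3 scaled MADs, all panel probe sets), a one-sided limma test of value over threshold (limma 3.58.1, R 4.3.3, Benjamini-Hochberg adjusted p under 0.05), quantile normalization again, the mean over a gene's probe sets, no probe sets whose names end in _x_at or _s_at (probes shared by several transcripts), and leaving out each culture. The scripts (Python 3.11.15, numpy 2.4.6, pandas 2.3.3, matplotlib 3.10.9) were tested on simulated data. Promoters came from a RefSeq table (GRCh38.p14; 27305 genes, all 10 members matched).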

Additional observations from a re-analysis of the deposited data

Results flagged for a closer look

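Signal over background was also seen in 3 probe sets that no comparison used, since each is annotated to DKC1, MIR664B and SNORA56 together. Dyskerin, the DKC1 protein, is the pseudouridine synthase of the H/ACA particle, and both small RNAs are encoded in introns of its gene. The probe set 201479_at averaged 10.901 (10.93, 10.85 and 10.91 in cultures 1, 2 and 3), 201478_s_at averaged 9.918 (9.80, 9.81 and 10.15), and 216212_s_at averaged 8.060 (7.80, 8.16 and 8.22). All 3 were over the thresholds on every array. The annotation does not say which of the transcripts a probe set reads, so the values are attributed to none of them.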

How the results depend on the processing

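The 7 genes called (DNMT1, DNMT3B, EZH2, SUZ12, EED, HDAC1 and HDAC2) were the same 7 under 10 of the 11 alternatives, and each of the 10 probe sets kept its side of the threshold in all 90 combinations of probe set and alternative. Without probe sets ending in _x_at and _s_at, 5 of the genes were still measured and 3 were called (SUZ12, HDAC1 and HDAC2), with 3 of 5 probe sets: DNMT1, DNMT3A, DNMT3B and EZH2 have no other probe set, and EED keeps only its dim one. That setting gave 3219 of 8371 genes above background, against 5376 of 11963; the other alternatives gave 3842 to 5897. It also gave 2 of 7 genes for DNA methylation, 5 of 8 for PRC1, 2 of 7 for the other deacetylases, 3 of 6 for the HDAC1 and HDAC2 complexes, and 3 of 3 for shelterin and telomere chromatin. The highest panel value as threshold gave 3 of 8 for PRC2 partners and demethylases, 4 of 14 for the other deacetylases and 6 of 12 for the HDAC1 and HDAC2 complexes. The median plus 3 scaled MADs gave 4 and 6 for the last pair of lists, and the mean over probe sets gave 7 for the complexes. The other 66 of 77 list counts stayed within 1.5 times. The median SD of the 7 probe sets, 0.19, was 0.0703 to 0.206 when 1 culture was left out, lowest without culture 1. The gap between the EED probe sets moved by less than its SD under all 4 alternatives. With 1 group and 3 arrays, no culture can be tested against another, and a low value bounds the signal of a probe set, not the transcript. No paired analysis was possible because there is 1 group.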
